A study of Canis lupus familiaris with 37 samples.

Results

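The levels of 5 annotated microRNA genes of the dog were followed through RNA sequencing counts of 37 canine samples. These genes are ENSCAFG00000026726, ENSCAFG00000028483, ENSCAFG00000030445, ENSCAFG00000031206 and ENSCAFG00000032629, and they make 5 of the 32704 genes in the count tables. They were selected on their read counts in these same samples, as genes that the study listed as differing from control lymph nodes in at least 1 group. Their lower levels against controls are therefore given below as a description without a test.

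The samples comprised 4 non-neoplastic lymph nodes used as controls, 12 multicentric B-cell lymphomas, 3 intestinal lymphomas, 1 T-cell lymphoma and 17 samples of 5 lymphoid cell lines, none of them given a treatment in the labels. The primary tumours arose naturally in dogs whose ages are not given in the sources used here. CLBL-1 (n = 5), its derivative CLBL-1M from a tumour that CLBL-1 formed in a mouse (n = 5) and GL-1 (n = 1) are B-cell lines, whereas OSW (n = 4) and CL-1 (n = 2) are T-cell lines. Samples of 1 line are not separate tumours, so the spread among them may be technical, and the whole tissue of a tumour or lymph node holds several cell types, so that fewer cells of a type and less RNA per cell cannot be told apart.

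MicroRNA genes are transcribed as long primary transcripts, often within the introns or exons of a host gene, and are then cut to a hairpin and to a short mature RNA that represses its target messenger RNAs. In lymphoid tissue several microRNAs are known to act in B-cell and T-cell development and in lymphoma. The libraries here were made from poly-A RNA, so that reads on a microRNA gene come from primary or host transcripts and do not measure the mature microRNA. Neither symbols, host genes nor sequences could be paired with the 5 identifiers, and it is therefore not stated here which microRNA each gene encodes. Levels are given as CPM, the reads on a gene scaled to a common total of reads on all genes of a sample, and they are not compared between genes because gene lengths were not used here.

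Between 1962722 and 4863730 reads per sample fell on genes, with a median of 2942360, so that 3 reads corresponded to between 0.617 and 1.53 CPM. The groups were taken from the sample titles. The label field on flow cytometry goes against the titles of many samples, including all 4 controls, the source name of control replicate 4 is that of a T-cell line, and the names CLBL-1 and CLBL-1M are exchanged between titles and file names. Control replicate 4 also stood apart in the files. The share of all reads that fell on more than 1 gene was 0.476% in control replicate 4 and 0.363 to 0.549% in the lines, but 0.129 to 0.143% in controls 1 to 3 and 0.0977 to 0.229% in the lymphomas. A share of 76.2 to 82.9% of the control reads fell on no gene, compared with 70.0 to 76.1% for lymphomas and 68.0 to 77.6% for lines. The part of these differences in the results below was not tested. Cell type markers could not be looked up in files without symbols, so the labelled tissue was not checked against them.

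Primary lymphomas and lines differed in how many of the 5 genes fell below the control range. Of the 80 values in primary lymphomas 34 lay below every control (42.5%), where the same holds for 37.8% of the values of all 15162 genes kept after a filter on low counts. Of the 85 values in cell lines 81 did (95.3%), against 42.3% for all genes, and since the rule chose the genes on these contrasts nothing is read from either difference. Of the line values 68 were also below 25% of the control median, compared with 9 of the lymphoma values, where the shares over all genes were 24.6% and 19.7%. Values of 3 reads or fewer numbered 9, all of them of ENSCAFG00000031206 in lines.

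**Figure D1:**
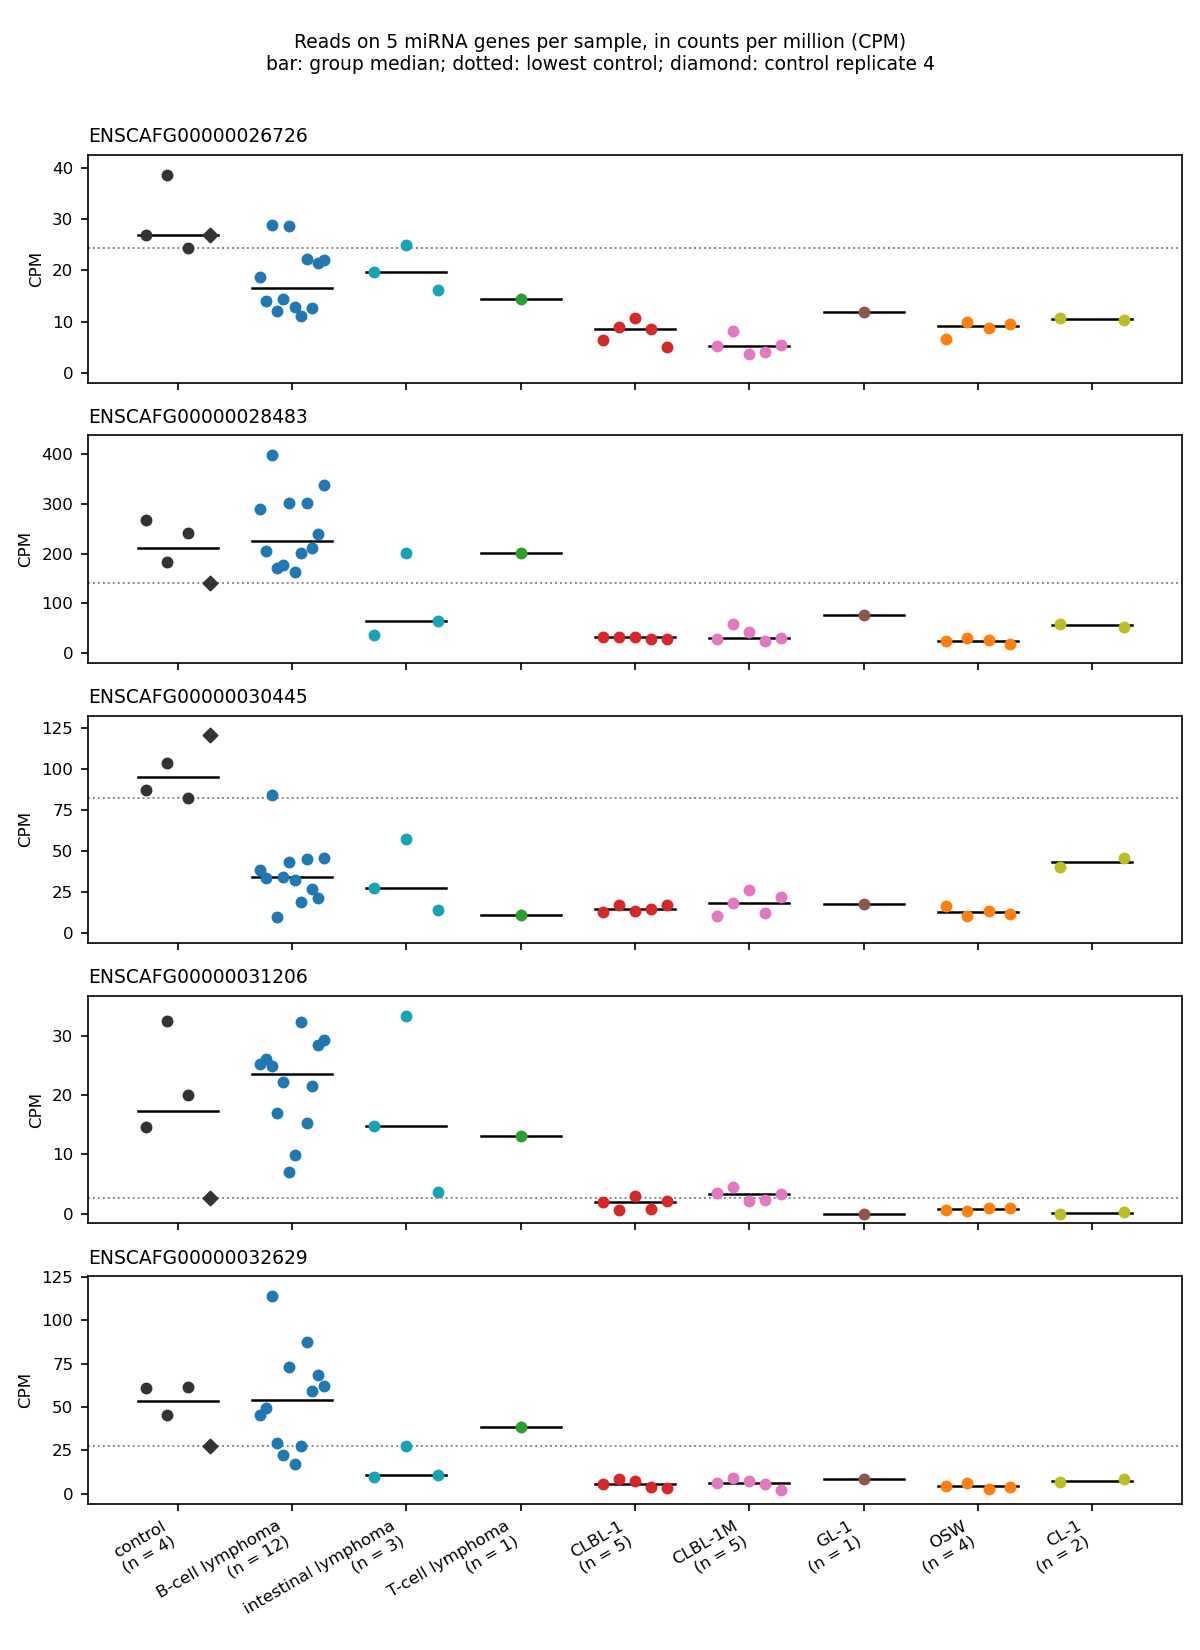
CPM of each of the 5 genes (vertical axis, 1 panel per gene, own scale) in each of the 37 samples, ordered by group, with the group median as a bar, the lowest control as a dotted line and control replicate 4 as a diamond. All 17 line samples lie below the dotted line for 4 genes and 13 of 17 for ENSCAFG00000031206, whereas the B-cell lymphomas lie mostly below it for ENSCAFG00000026726 (10 of 12) and ENSCAFG00000030445 (11 of 12) only.

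ENSCAFG00000030445 had the lowest median relative to controls in the primary lymphomas among the 5 genes. Its level was 87.1, 103, 82.4 and 120 CPM in controls 1 to 4. In B-cell lymphomas it ranged from 9.82 to 84.4 CPM with a median of 34.2 CPM. It was 27.6, 57.1 and 13.9 CPM in the 3 intestinal lymphomas and 10.9 CPM in the T-cell lymphoma. Thus, all but 1 of the 16 primary lymphomas lay below every control, the exception being B-cell lymphoma replicate 3, which exceeded control replicate 3 alone.

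In the lines ENSCAFG00000030445 stood at 12.9, 16.99, 13.8, 14.9 and 17.4 CPM in CLBL-1 and at 10.3, 18.7, 26.5, 12.1 and 21.9 CPM in CLBL-1M. It was 17.9 CPM in GL-1, 16.8, 10.3, 13.6 and 11.7 CPM in OSW and 40.5 and 45.6 CPM in CL-1. Both CL-1 samples were above every other line sample and above the median of the B-cell lymphomas. The lines overlapped the tumours for this gene, since 13 of the 16 lymphomas were at or below the highest line sample, which was of CL-1. Still, the lymphoma median was 1.98 times the line median, and 15 of 17 line samples lay below the lymphoma median. The edgeR log2 fold change against controls was −1.31 ± 0.32 (SE) in B-cell lymphomas and −1.67 ± 0.43 in the intestinal and T-cell lymphomas as 1 group, and it ranged over the lines from −2.79 ± 0.46 in OSW to −1.21 ± 0.54 in CL-1.

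ENSCAFG00000026726 was lower in most lymphomas and lower again in the lines. The controls had 26.9, 38.7, 24.4 and 26.9 CPM, the B-cell lymphomas 11.1 to 29.0 CPM with a median of 16.6 CPM, the intestinal lymphomas 19.7, 25.0 and 16.2 CPM and the T-cell lymphoma 14.3 CPM. Accordingly, 13 of the 16 lymphomas were below every control, and none was below 25% of the control median. The line samples had 6.47, 8.84, 10.8, 8.57 and 5.05 CPM in CLBL-1, 5.27, 8.08, 3.57, 4.02 and 5.47 CPM in CLBL-1M, 11.9 CPM in GL-1, 6.66, 9.96, 8.82 and 9.52 CPM in OSW and 10.7 and 10.2 CPM in CL-1. Only the GL-1 sample reached the lowest lymphoma, and the lymphoma median was 2.04 times the line median. Log2 fold changes against controls were −0.55 ± 0.25 in B-cell lymphomas, −0.47 ± 0.32 in intestinal and T-cell lymphomas and between −2.29 ± 0.32 in CLBL-1M and −1.34 ± 0.56 in GL-1 for the lines.

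ENSCAFG00000028483 had levels in B-cell lymphomas that overlapped those of the controls and was low in the lines. The controls stood at 267, 183, 241 and 140 CPM and the B-cell lymphomas at 163 to 398 CPM with a median of 226 CPM, so that none of the 12 was below every control. The intestinal lymphomas were split, with 36.5 and 65.1 CPM in replicates 1 and 3 but 201 CPM in replicate 2, and the T-cell lymphoma also had 201 CPM. Values in the lines were 32.7, 31.3, 32.3, 29.1 and 28.1 CPM in CLBL-1, 28.4, 58.6, 43.2, 23.5 and 31.0 CPM in CLBL-1M, 76.4 CPM in GL-1, 23.2, 30.6, 26.1 and 18.7 CPM in OSW and 59.1 and 52.7 CPM in CL-1. All 17 line samples were below every control, and the lymphomas as low as the highest line sample were intestinal replicates 1 and 3. Log2 fold changes against controls were 0.39 ± 0.30 in B-cell lymphomas, −0.57 ± 0.36 in intestinal and T-cell lymphomas and between −2.97 ± 0.39 in OSW and −1.50 ± 0.63 in GL-1.

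ENSCAFG00000032629 followed a like order of groups. It was 61.1, 45.3, 61.6 and 27.4 CPM in the controls and 17.1 to 114 CPM in the B-cell lymphomas, whose median was 54.4 CPM and of which 2 of 12 lay below every control. The intestinal lymphomas had 9.71, 27.7 and 10.8 CPM and the T-cell lymphoma 38.7 CPM, so that intestinal replicates 1 and 3 were again the lowest of the tumours. The lines had 5.66, 8.50, 7.33, 4.10 and 3.47 CPM in CLBL-1, 6.44, 9.09, 7.14, 5.70 and 2.13 CPM in CLBL-1M, 8.41 CPM in GL-1, 4.44, 6.05, 2.71 and 4.12 CPM in OSW and 6.87 and 8.37 CPM in CL-1. It was the only one of the 5 genes for which every line sample was below every lymphoma. The highest line value was 9.09 CPM (18 reads, CLBL-1M replicate 2) and the lowest lymphoma value 9.71 CPM (38 reads, intestinal replicate 1). Of all kept genes 1.58% showed this pattern, and since contrasts with controls chose the 5 genes nothing is read from that share. Log2 fold changes against controls were 0.28 ± 0.39 in B-cell lymphomas, −1.02 ± 0.48 in intestinal and T-cell lymphomas and between −3.38 ± 0.54 in OSW and −2.59 ± 0.92 in GL-1.

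ENSCAFG00000031206 was the only one of the 5 genes that reached 3 reads or fewer in lines, and its controls differed most. The controls had 14.6, 32.6, 20.1 and 2.61 CPM, from 32, 64, 61 and 6 reads, a range of 12.5-fold that control replicate 4 alone made this wide. The B-cell lymphomas had 7.01 to 32.4 CPM with a median of 23.6 CPM, the intestinal lymphomas 14.8, 33.5 and 3.59 CPM and the T-cell lymphoma 13.2 CPM. No primary lymphoma was below every control, and 4 of 16 were below controls 1 to 3.

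The line samples held 2.02, 0.680, 3.02, 0.745 and 2.21 CPM of ENSCAFG00000031206 in CLBL-1, 3.51, 4.54, 2.08, 2.35 and 3.34 CPM in CLBL-1M, 0.635, 0.356, 1.02 and 0.952 CPM in OSW and 0 and 0.310 CPM in CL-1. No read was found in the single GL-1 sample, where 3 reads would be 1.05 CPM, so that the control median was at least 16.5-fold higher and the lowest control at least 2.48-fold higher. The 4 line samples that were not below every control belonged to CLBL-1 and CLBL-1M. Of the other groups, B-cell lymphomas had a log2 fold change against controls of 0.40 ± 0.45, intestinal and T-cell lymphomas one of 0.04 ± 0.54, CLBL-1 one of −3.17 ± 0.58, CLBL-1M one of −2.31 ± 0.55 and OSW one of −4.40 ± 0.69, whereas at the near absence of reads in GL-1 and CL-1 the fitted value depends on the prior count.

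The number of low genes differed between tumours. Intestinal lymphoma replicates 1 and 3 had 4 of the 5 genes below every control, 9 of the 16 lymphomas had 2, and B-cell lymphoma replicate 3 had none. In the lines, 13 samples had all 5 genes below every control and the remaining 4 samples had 4. The share of all kept genes was not computed for single samples, and contrasts with controls chose the genes, so nothing is read from these counts. Of the 20 values in intestinal and T-cell lymphomas 11 were below every control, where 39.5% of values of all genes were, and 6 were below 25% of the control median, where 20.2% were.

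Counted by gene, none of the 5 had every B-cell lymphoma below every control, a pattern that 12.7% of kept genes showed, and ENSCAFG00000030445 alone had every intestinal and T-cell lymphoma there (16% of kept genes). It was 4 of 5 genes in CLBL-1 (35.8% of kept genes) and in CLBL-1M (34.4%), with ENSCAFG00000031206 as the exception in both. It was all 5 in GL-1 (35.9%), OSW (33.1%) and CL-1 (38.2%). Taken over classes, no gene had all 16 lymphomas below every control (6.23% of kept genes), 4 had all 17 line samples there (15.4%), and none had all 33 (4.09%). These contrasts chose the genes, and nothing is read from the counts.

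With TMM scaling the median log2 fold change of all kept genes against controls lay between −0.23 and 0.09 over the 7 groups, and with the RLE size factors between −0.41 and −0.07. The median over the 5 genes was 0.28 in B-cell lymphomas beside 0.01 for all genes, −0.57 beside 0.09 in intestinal and T-cell lymphomas, −2.58 beside −0.19 in CLBL-1, −2.31 beside −0.16 in CLBL-1M, −2.50 beside −0.08 in GL-1, −2.97 beside −0.08 in OSW and −1.93 beside −0.23 in CL-1. Of the 35 fold changes 31 were below 0 with TMM and 32 with RLE, which turned ENSCAFG00000031206 in intestinal and T-cell lymphomas to a value below 0.

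Dependence on each control was examined by setting the median of a class against 1 control at a time. Control replicate 4 was the lowest control for 3 genes (ENSCAFG00000028483, ENSCAFG00000031206 and ENSCAFG00000032629) and the highest for ENSCAFG00000030445. For the lines, ENSCAFG00000026726 in controls 1 to 4 was 3.14, 4.52, 2.85 and 3.14 times the line median. ENSCAFG00000030445 was 5.18, 6.15, 4.90 and 7.16 times the line median, control replicate 4 giving the highest value. The lowest value came from control replicate 4 for the remaining genes, with 8.63, 5.91, 7.77 and 4.53 for ENSCAFG00000028483, 10.1, 7.50, 10.2 and 4.53 for ENSCAFG00000032629 and 14.3, 32.0, 19.8 and 2.56 for ENSCAFG00000031206. Thus, the direction of the median over all 17 line samples was the same with every control, whereas the size for ENSCAFG00000031206 ranged from 2.56 to 32.0. For CLBL-1M alone the median of this gene was 1.28 times control replicate 4, with 2 of 5 samples below it. All 17 line samples lay below each of the controls for the other 4 genes, while 13 of 17 lay below control replicate 4 for ENSCAFG00000031206.

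**Figure D2:**
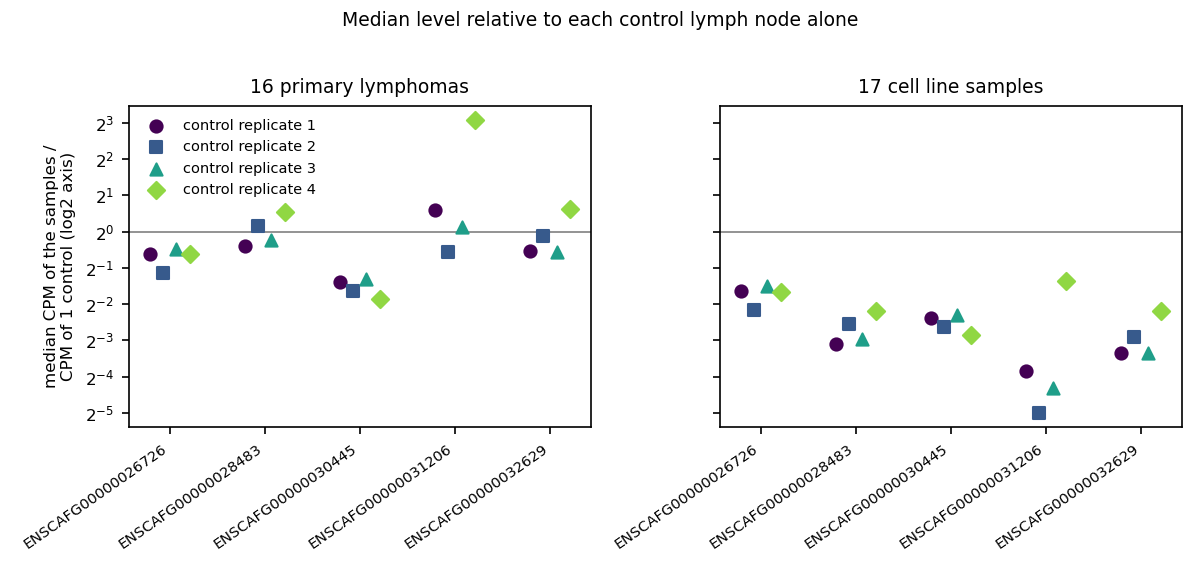
Median CPM of the 16 primary lymphomas (left) and of the 17 cell line samples (right) divided by the CPM of 1 control, for each of the 5 genes (horizontal axis) and each of the 4 controls (symbols), on a log2 axis where the line marks equal levels. All medians over the 17 line samples lie below the line, whereas the lymphoma medians of ENSCAFG00000028483, ENSCAFG00000031206 and ENSCAFG00000032629 lie above control replicate 4 and on both sides of the other controls or below them.

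For the primary lymphomas the choice of control decided the direction for 3 of the genes. In controls 1 to 4 the level was 2.62, 3.11, 2.47 and 3.62 times the lymphoma median for ENSCAFG00000030445 and 1.54, 2.22, 1.40 and 1.55 times for ENSCAFG00000026726, so that every control lay above the lymphomas for both. The values were 1.32, 0.901, 1.18 and 0.691 for ENSCAFG00000028483 and 0.667, 1.49, 0.918 and 0.119 for ENSCAFG00000031206, whose directions thus turned among controls 1 to 3 as well. For ENSCAFG00000032629 they were 1.45, 1.08, 1.46 and 0.651, and control replicate 4 alone lay below the lymphoma median.

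In the fits that left out 1 control, the B-cell lymphoma fold change of ENSCAFG00000031206, 0.40 with all controls, was −0.07 ± 0.43 without control replicate 4 but 0.91 ± 0.51 without control replicate 2. In intestinal and T-cell lymphomas it was 0.04 with all controls, −0.44 ± 0.51 without control replicate 4, −0.06 ± 0.59 without control replicate 1 and 0.56 ± 0.58 without control replicate 2. The B-cell lymphoma fold change of ENSCAFG00000032629 turned from 0.28 to −0.03 ± 0.42 without control replicate 4 and was 0.27 to 0.39 without 1 of the other controls. Without control replicate 4, 34 of the 35 fold changes were below 0.

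Since control replicate 4 lay with the lines in its share of reads on more than 1 gene, the lines were also compared with it alone. The log2 fold change of ENSCAFG00000031206 was then −0.50 ± 0.88 in CLBL-1, 0.34 ± 0.89 in CLBL-1M and −1.67 ± 0.92 in OSW. The other 4 genes stayed below 0 in all 5 lines, from −1.29 ± 0.67 to −2.27 ± 0.45 for ENSCAFG00000026726, from −0.99 ± 0.73 to −2.42 ± 0.51 for ENSCAFG00000028483, from −1.54 ± 0.73 to −3.10 ± 0.61 for ENSCAFG00000030445 and from −1.81 ± 1.02 to −2.56 ± 0.72 for ENSCAFG00000032629. The ends −1.29, −0.99 and −1.81 are those of GL-1, with 1 sample on each side. Their errors come from the spread within other groups. These comparisons have 1 control and carry no test.

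The other 4 microRNA genes that the study listed also set control replicate 4 apart. ENSCAFG00000032467 had 0 reads in each of controls 1 to 3, at most 1 read in any lymphoma, 17 to 98 reads in the lines and 148 reads in control replicate 4. ENSCAFG00000027299 had 1, 0 and 2 reads in controls 1 to 3 and 15 in control replicate 4, beside 13 to 88 in the lines. ENSCAFG00000030722 had 6, 3 and 13 reads in controls 1 to 3 and 42 in control replicate 4, beside 34 to 148 in the lines. ENSCAFG00000020626 had 0, 2 and 6 reads in controls 1 to 3 and 41 in control replicate 4, within the range of 15 to 98 in the lymphomas and 26 to 151 in the lines. For all 4 genes control replicate 4 was thus the highest control, and the part of what sets it apart in the results on the lines was not tested.

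Contrasts without controls were tested with edgeR's quasi-likelihood test with Benjamini-Hochberg adjustment over all 15162 kept genes. These contrasts did not themselves choose the genes. The tumour and line samples in them did, however, enter the contrasts that did, so the p-values are not independent of that choice. Of 20 tests of a gene in 1 of 4 contrasts none passed the adjusted p of 1e-05 that the study used, 4 had an adjusted p of at most 0.05 and 5 an unadjusted p under 0.05. DESeq2 likewise passed none at 1e-05. The spread behind these tests was estimated from all 37 samples, with tumours of different dogs and repeated samples of a line together. In edgeR fits of only the groups compared, 56 kept genes passed 1e-05 between lymphomas instead of 633. They numbered 3239 instead of 2010 between OSW and the CLBL lines and 2313 instead of 619 between OSW and CL-1. The shared spread thus made the tests less strict between lymphomas and stricter between lines.

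In intestinal and T-cell lymphomas against B-cell lymphomas, 4.17% of all kept genes passed at 1e-05 and 30.9% at 0.05. Of the 4 tumours in the first group 3 were intestinal, and the B-cell lymphomas were multicentric. Lymphoma type and site can therefore not be told apart here. The study joined these 4 tumours because their expression was alike in these same data. Among the 5 genes, ENSCAFG00000028483 and ENSCAFG00000032629 passed 0.05. ENSCAFG00000028483 was lower by a log2 fold change of −0.96 ± 0.31 (adjusted p = 0.0164, edgeR) and ENSCAFG00000032629 by one of −1.30 ± 0.42 (adjusted p = 0.0168, edgeR). Both differences rested on intestinal replicates 1 and 3, since intestinal replicate 2 and the T-cell lymphoma lay within the B-cell range. Without replicate 1 or without replicate 3 neither gene passed 0.05, with edgeR adjusted p of up to 0.0878 and 0.0743. Without intestinal lymphoma replicate 1 the fold change of ENSCAFG00000028483 was −0.69, and without replicate 3 that of ENSCAFG00000032629 was −1.07. The other 3 genes had log2 fold changes of 0.08 ± 0.26 for ENSCAFG00000026726, −0.36 ± 0.36 for ENSCAFG00000030445 and −0.36 ± 0.45 for ENSCAFG00000031206 and edgeR adjusted p of 0.851, 0.482 and 0.595.

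**Figure D3:**
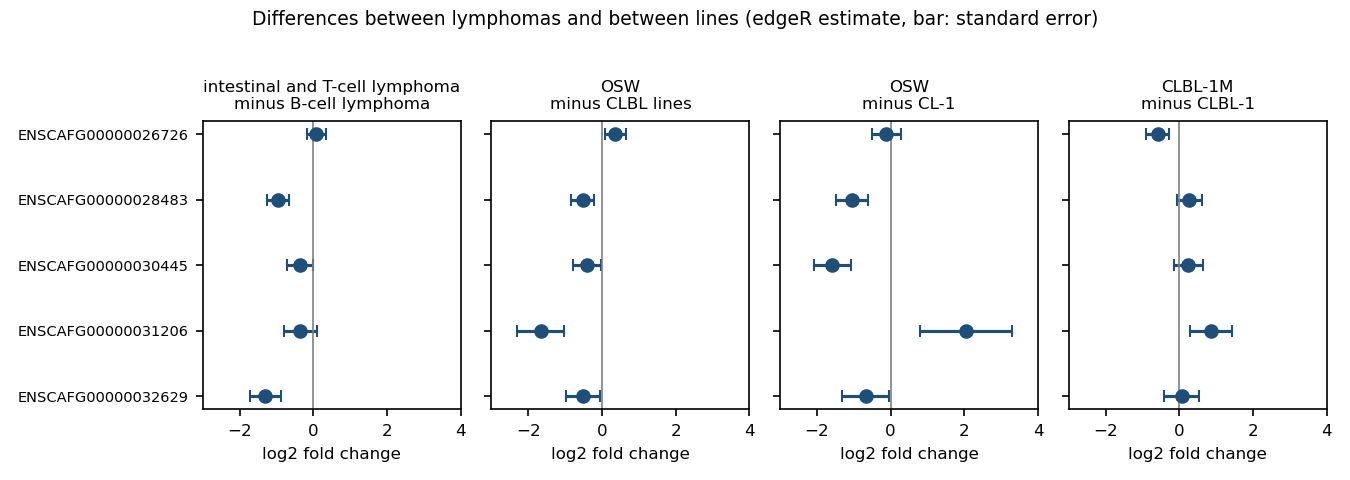
Log2 fold change (horizontal axis) with its standard error (bars) from the edgeR fit for each of the 5 genes (vertical axis) in the 4 contrasts that involve no control. The differences furthest from 0 relative to their error are those of ENSCAFG00000028483 and ENSCAFG00000032629 between lymphomas (−0.96 and −1.30), of ENSCAFG00000031206 between OSW and the CLBL lines (−1.67) and of ENSCAFG00000030445 between OSW and CL-1 (−1.58).

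Among the lines, ENSCAFG00000031206 was lower in OSW than in CLBL-1 and CLBL-1M together by a log2 fold change of −1.67 ± 0.63 (edgeR, adjusted p = 0.0321), in a contrast where 13.3% of kept genes passed at 1e-05 and 43.3% at 0.05. Highest among the OSW samples was 1.02 CPM, a level that 2 CLBL-1 samples did not reach. These levels rest on 1 to 3 reads per OSW sample and 2 to 12 reads per CLBL sample. All 4 OSW samples thus held 3 reads or fewer. Without any 1 of the OSW samples, without CLBL-1 replicate 3 or 5 or without CLBL-1M replicate 2 this gene no longer passed 0.05, with adjusted p of up to 0.0984 by edgeR, although over all fits without 1 sample its log2 fold change stayed between −1.77 and −1.46. The other 4 genes had edgeR adjusted p from 0.193 to 0.416 in this contrast, with log2 fold changes between −0.53 ± 0.32 and 0.36 ± 0.28.

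Between the T-cell lines, ENSCAFG00000030445 was lower in OSW than in CL-1 by a log2 fold change of −1.58 ± 0.51 (edgeR, adjusted p = 0.0169), where 4.08% of kept genes passed at 1e-05 and 30.8% at 0.05, and the samples of both lines did not overlap. ENSCAFG00000028483 showed −1.04 ± 0.44 with an edgeR adjusted p of 0.0679 and likewise no overlap. This gene passed 0.05 with edgeR's test without scaling (adjusted p = 0.0351) and with another filter (adjusted p = 0.0455). It also passed in the edgeR fit of OSW and CL-1 alone (adjusted p = 0.000294) and without intestinal lymphoma replicate 1 (edgeR, adjusted p = 0.0197). Without CL-1 replicate 1 the log2 fold change of ENSCAFG00000028483 was −0.96. Under the other scalings, filters and fits the adjusted p of ENSCAFG00000030445 lay between 1.13e-05 and 0.0423 (edgeR or DESeq2). Its log2 fold change was −1.66 and −1.47 without either CL-1 sample. In these fits the remaining CL-1 sample is assumed to vary like the other groups, so no call is given. ENSCAFG00000031206 gave 2.05 ± 1.24 from 1 read in both CL-1 samples together, with an edgeR adjusted p of 0.224.

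None of the 5 genes passed between CLBL-1M and CLBL-1, with an adjusted p of 1 throughout in edgeR and log2 fold changes from −0.58 ± 0.31 for ENSCAFG00000026726 to 0.86 ± 0.58 for ENSCAFG00000031206. Over all kept genes edgeR passed 0 (0%) at 1e-05 and DESeq2 4. An unadjusted p under 0.05 was found for 201 genes in edgeR, and for 598 in an edgeR fit of CLBL-1 and CLBL-1M alone. Both numbers are smaller than expected if no gene differed, so the absence of calls does not show that the lines are alike.

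ENSCAFG00000028483 and ENSCAFG00000032629 had the most similar profiles to each other among the kept genes. Over the 37 samples the Pearson correlation of log2(CPM + 1) was 0.957, and each was the gene most like the other among 15161 genes compared. It was 0.885 over the 16 primary lymphomas, where each was among the 15 genes most like the other, and 0.616 over the 17 line samples, of which many are replicates of 1 line. All points share their library, and the value over 37 samples mostly contrasts lines with tissue. Per 100 reads on ENSCAFG00000028483 there were 19.5 to 25.6 reads on ENSCAFG00000032629 in the controls, 10.4 to 29.0 in the B-cell lymphomas and 6.86 to 27.2 in the lines, with medians of 23.8, 21.3 and 16.6 reads.

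**Figure D4:**
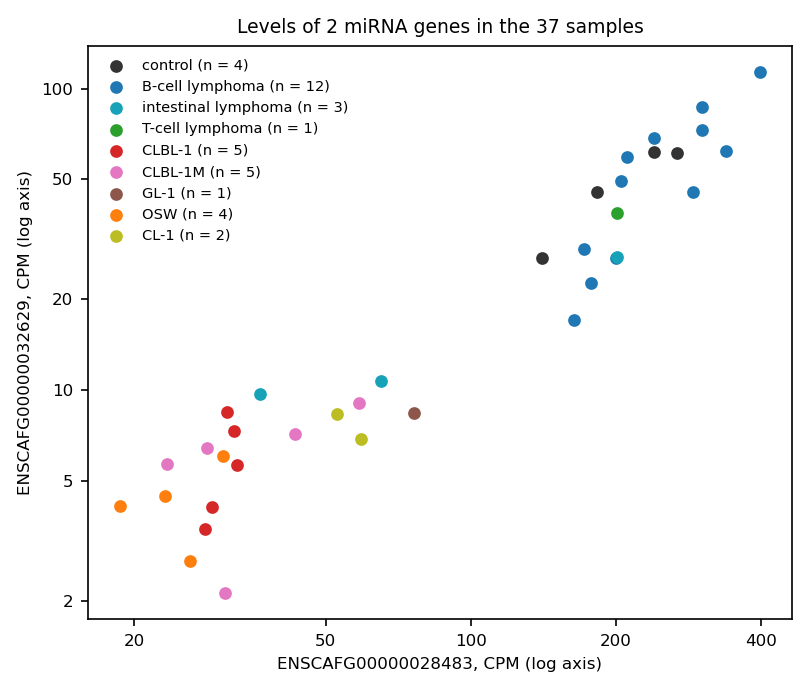
CPM of ENSCAFG00000032629 (vertical log axis) against CPM of ENSCAFG00000028483 (horizontal log axis) in the 37 samples, coloured by group. Controls, B-cell lymphomas, the T-cell lymphoma and intestinal lymphoma replicate 2 form the upper points, from 140 CPM of ENSCAFG00000028483 upwards, while the lines and intestinal lymphoma replicates 1 and 3 lie at 76.4 CPM or below.

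The remaining genes had their closest profiles elsewhere. ENSCAFG00000026726 was most like ENSCAFG00000000320, with a correlation of 0.921 over the 37 samples and 0.940 over the 16 lymphomas, where it again ranked first. The levels of ENSCAFG00000000320 were 21.4 to 32.6 CPM in controls, with a median of 16.3 CPM in lymphomas and 9.61 CPM in lines. ENSCAFG00000030445 was most like ENSCAFG00000019346 (0.899, and 0.831 over the lymphomas) and ENSCAFG00000031206 most like ENSCAFG00000012641 (0.904 and 0.774). Next to its partner, ENSCAFG00000028483 was most like ENSCAFG00000000912 (0.953) and ENSCAFG00000032629 most like ENSCAFG00000011713 (0.932). Among the 5 genes themselves, correlations over the 37 samples ran from 0.444 for ENSCAFG00000030445 with ENSCAFG00000031206 to 0.957 for the pair above. Over the 17 line samples ENSCAFG00000031206 ran opposite to ENSCAFG00000026726 with a correlation of −0.609. That value rests on 5 lines, many of the samples being replicates, and on 0 to 12 reads of ENSCAFG00000031206 per sample. In 9 of these samples the gene had 3 reads or fewer.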

How the data were processed

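Paired-end reads of 100 bases from poly-A enriched RNA were mapped by the authors to CanFam3.1 with BWA, the alignments were processed with Picard and SAMtools, and reads were counted per gene of Ensembl release 85 with HTSeq 0.6.1, and the strand setting is not given in the sources used here. The deposited values are whole-number counts. Rows that name no gene were left out of library sizes, and among them the reads that fell on no gene made up 68.0 to 82.9% of each file. The 5 genes and all lists were chosen with earlier results of these data known. CPM was computed from the sum of the gene rows. One edgeR 4.0.16 quasi-likelihood fit (R 4.3.3, TMM) covered all 37 samples in 8 groups, with intestinal and T-cell lymphomas as 1 group, over 15162 genes whose highest CPM was above the 40th percentile, and standard errors were derived from the estimate and its F statistic. For the single GL-1 sample these errors rest on the spread within other groups. The fit was also run on simulated counts, with changes larger than those in the contrasts without controls and 1 spread per gene over all groups. Nothing is read from that run. Alternatives were DESeq2 1.42.0, other scalings and filters, a threshold of 0.05, a replicate block, exchanged CLBL names, other controls and leaving out each replicate. The genes named are the 5, the other 4 microRNA genes the study listed, and the genes most like each of the 5. Planned lists of 13 microRNA machinery genes and 22 cell type markers were not used, because 0 of their symbols could be paired with the identifiers. No replicates agreed within sampling noise, so none was merged. Reads are not independent molecules, so limits given for few reads cover counting error only.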

Additional observations from a re-analysis of the deposited data

How the results depend on the processing

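Against controls, 31 of 35 fold changes of the 5 genes were below 0, and 31 to 32 under other scalings, filters, DESeq2, exchanged CLBL names and other controls, and 31 to 34 without 1 sample. Direction turned for ENSCAFG00000031206 in CLBL-1M, from −2.31 to 0.34 when control replicate 4 was the only control. Leaving out 1 replicate at a time, the log2 fold change of ENSCAFG00000026726 ran from −0.081 to 0.19 between intestinal and T-cell and B-cell lymphomas and from −0.23 to 4.66e-05 between OSW and CL-1, and that of ENSCAFG00000032629 from −0.13 to 0.29 between CLBL-1M and CLBL-1, all within their error of 0. A threshold of 0.05 passed 2, 1 and 1 genes where 1e-05 passed 0, and in fits of only the groups compared 0 genes passed 0.05 between lymphomas, 1 between OSW and the CLBL lines and 2 between OSW and CL-1. Values below every control numbered 115 of 165, 112 to 119 with TMM or thinned counts, and 115 to 130 without 1 control, the highest without control replicate 4. Replicate numbers did not pair the samples, since same-numbered samples of different groups had a mean correlation of −0.01 (−0.22 to 0.11). With the replicate block 32 of 35 fold changes were below 0 and 0 genes passed 1e-05 in any of the 4 contrasts, while ENSCAFG00000031206 between OSW and the CLBL lines had an edgeR adjusted p of 0.0503. The lists of microRNA machinery genes and markers were not run. Depth limits ENSCAFG00000031206 most, since 3 reads were 0.617 to 1.53 CPM.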
